A study of Trichoderma reesei with 15 samples.

Results

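In Trichoderma reesei lacking the phosphatase gene pp2A, 31 of the 10879 listed genes formed a set that was expressed elsewhere and lower in every Δpp2A library. The members were chosen from the measured values themselves, in CPM, the counts of a gene per 1000000 counts of its library. A gene qualified with at least 5 CPM in each of the 11 libraries of the other strains, a mean under 1000 CPM over the 4 parent libraries, and a highest Δpp2A value of at most 0.5 of the lowest value among those 11. Both level criteria were met by 6452 genes, so the members were 0.480% of them. The mirrored rule, with every Δpp2A library at least 2-fold above the other 11, took 67 genes (1.04%). Both counts depend on the scaling by library total. With CPM scaled against composition (TMM) the rule took 56 genes, and the mirrored rule was not run that way. The counts are therefore no measure of the balance between raised and lowered genes. Since all 15 libraries entered the choice, the difference between Δpp2A and the rest is given as a description, without a test.

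The study sequenced RNA of mycelium grown for 96 h at 28 °C on cellulose in constant darkness. The groups were the parent strain QM6aΔmus53 with the tag DD1 (2 libraries) and with the tag DD3 (2 libraries), QM6aΔmus53Δpp2A (DD1, 4 libraries), the pph5 deletion in the same parent (DD1, 3 libraries) and the pph5-2 deletion (DD3, 4 libraries). All strains, the parent included, thus lack mus53, whose product acts in DNA repair by end joining. The labels do not say what DD1 and DD3 stand for, how many clones each deletion rests on, or whether replicates are separate cultures, so p-values measure the spread between these libraries, which may be technical. Titles were followed where labels conflict, since the type of Δpp2A replicate 1 reads WT and the source of the pph5-2 libraries names pph5. Δpp2A replicate 3 stood apart from the other Δpp2A libraries in the genes described here. Library totals lay between 6026511 and 13572121 counts, and among the Δpp2A libraries between 7862390 and 11134647. In such bulk RNA a lower share of hyphae that express a gene and less of its RNA per hypha cannot be told apart.

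As background, PP2A is a serine/threonine phosphatase that reverses phosphorylation by protein kinases, and in its common form a catalytic subunit works with a scaffold and an exchangeable regulatory subunit. On cellulose, T. reesei secretes large amounts of cellulases, whose genes are switched on at the level of transcription. The deposited table pairs its identifiers with no gene names, and 0 of the 31 members matched the reference gene table. No role is therefore given to any member below, and members are described by level, length and place in the identifier series.

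TrG1101W (coding length 846 bases) had the widest gap and is taken as the candidate for the deleted gene, though the files do not name it as pp2A and no check of the deletion by name was possible. It had 0 counts in Δpp2A replicates 1, 2 and 3 and 4 counts in replicate 4, which is 0.479 CPM. In the DD1 parent it was at 26.5 and 32.2 CPM, in Δpph5 at 38.3, 32.7 and 34.2 CPM, in the DD3 parent at 28.2 and 32.6 CPM, and in Δpph5-2 at 32.9, 32.1, 35.04 and 26.4 CPM. Its highest value over these 11 libraries was 1.45-fold the lowest, the smallest spread of any member, and the ranges of the strains other than Δpp2A overlapped or nearly met. The lowest of the 11 was 55.0-fold the highest Δpp2A value. A count of 0 in the Δpp2A libraries allows up to 3 counts, or between 0.269 and 0.382 CPM.

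With all 4 Δpp2A libraries, TrF0378C (1047 bases) had the widest gap apart from this candidate, at 8.43-fold. Without Δpp2A replicate 3, a setting chosen after the data were seen, its gap was 13.1-fold and 5 other members had wider ones, TrE1139W (19.6-fold), TrA0865C (17.6-fold), TrE1138C (17.4-fold), TrG0018C (14.5-fold) and TrC1575C (13.9-fold). It was at 2.16, 0.763, 3.72 and 2.40 CPM in Δpp2A replicates 1 to 4, with a mean of 2.26 ± 1.21 CPM (SD, n = 4). The parents had 34.7 and 54.2 CPM (DD1) and 48.2 and 61.9 CPM (DD3), Δpph5 had 54.5, 31.4 and 33.3 CPM, and Δpph5-2 had 53.3, 54.9, 32.0 and 39.8 CPM. The other strains thus shared the range from 31.4 to 61.9 CPM, and Δpp2A kept 4.99% of their mean.

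**Figure D1:**
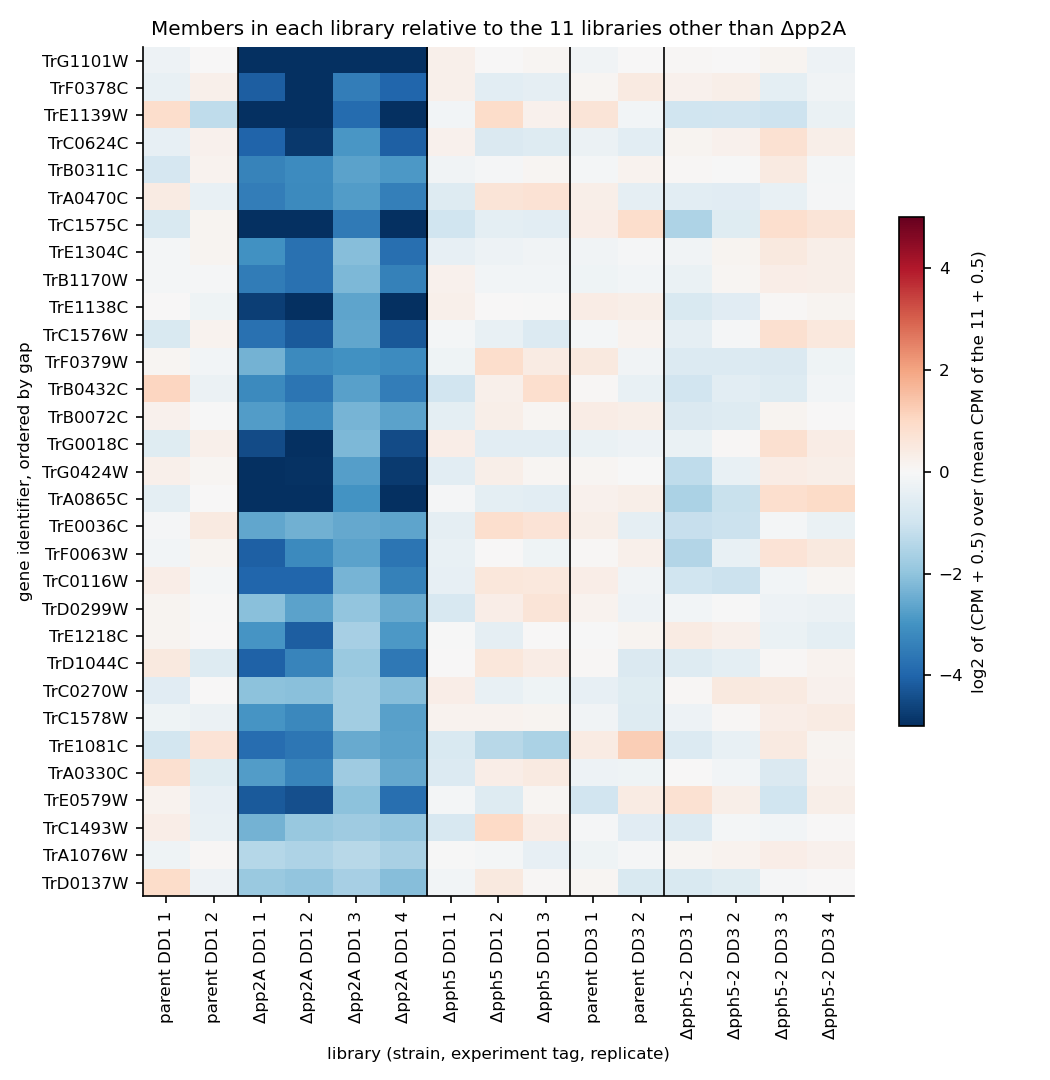
Each row is a member and each column a library; colour gives log2 of CPM over the mean of the 11 libraries other than Δpp2A (0.5 CPM added to both), with the scale ending at -5 and 5. All 4 Δpp2A columns are blue in every row, as the rule demands, and replicate 3 is the palest of them in most rows, while the other columns stay near white with patches that differ by replicate.

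Over the 31 members, Δpp2A kept between 0.376% and 35.2% of the mean of the 11 other libraries, with a median of 10.3%. Without Δpp2A replicate 3 the median was 7.95%, and the median gap was 5.29-fold instead of 2.85-fold. With all 4 libraries, in 14 members less than 10% was left. The strongest remainder was in TrA1076W (642 bases), at 37.1, 33.7, 37.6 and 31.9 CPM in Δpp2A against 75.6 to 127 CPM elsewhere, a 2.84-fold difference of the means. By edgeR's fit of Δpp2A against the DD1 parent the members' log2 fold changes ran from -8.23 to -1.73 with a median of -3.61, where the median of all 8912 genes tested was -0.03. Without Δpp2A replicate 3 the median of the members was -4.05. In that fit 31 of 31 members were called lower and 0 higher at an adjusted p under 0.05, where 18.7% of all genes were called, 10.7% lower and 7.94% higher. In the fit of Δpp2A against Δpph5 31 of 31 members were again called lower, where 33.8% of all genes were called, 19.6% lower and 14.1% higher. Both contrasts were used by the rule, so these counts say nothing beyond the choice of members. Scaling by library size alone instead of TMM, edgeR's scaling against composition, shifted all genes by a median log2 value of 0.30 and put the median of the members at -3.27.

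The values just inside and outside the limit lay close together. The 3 members nearest to it had gaps of 2.01, 2.01 and 2.06, and the 3 genes just outside had gaps of 1.99, 1.99 and 1.98. A gap between 1.5 and 2 was found in 49 further genes that met the level criteria.

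**Figure D2:**
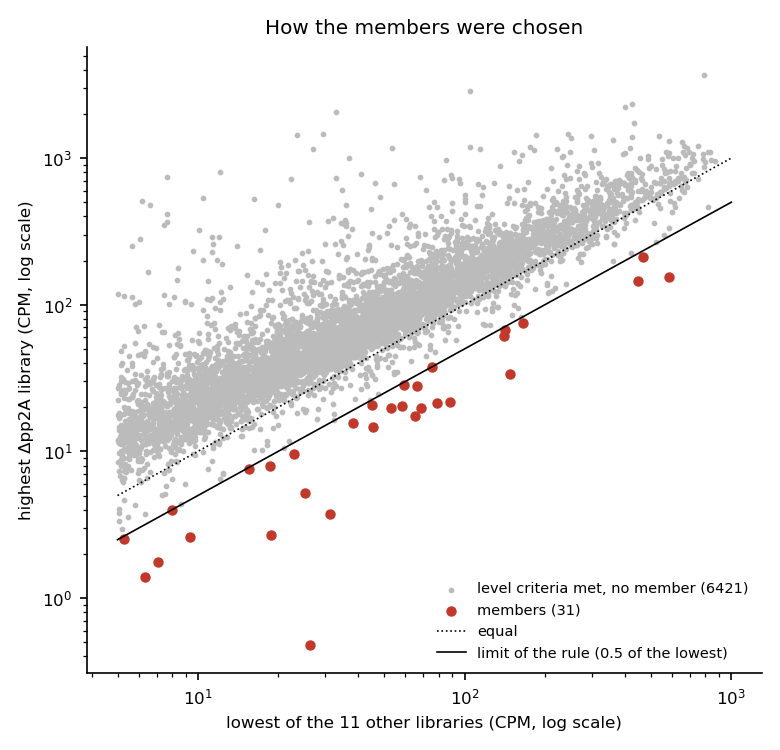
Each point is a gene that met both level criteria (n = 6452), with its lowest value among the 11 other libraries on the horizontal axis and its highest Δpp2A value on the vertical axis, both in CPM on log scales. The 31 members lie under the solid line, which marks the limit of the rule, many of them close to it, and TrG1101W lies lowest, at 0.479 CPM.

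Expression of the members in the parents spanned a wide range. Per length, the parent mean ran from 9.63 to 418 CPM per kb with a median of 68.5, against a median of 40.9 CPM per kb over the genes that met the level criteria. Together the members made up 0.518% and 0.472% of the counts in the DD1 parent. In Δpp2A replicates 1 to 4 this share was 0.0418%, 0.0390%, 0.106% and 0.0452%.

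TrG0018C (1422 bases) had the highest parent level per length, 418 CPM per kb. In Δpp2A it was at 30.2, 13.4, 145 and 30.7 CPM. The DD1 parent had 446 and 818 CPM, Δpph5 had 870, 478 and 474 CPM, the DD3 parent had 545 and 568 CPM, and Δpph5-2 had 545, 710, 1199 and 877 CPM. No other strain came near the Δpp2A values, but replicate 3 stood far above the other Δpp2A libraries. TrD1044C (2535 bases) had the highest parent mean before division by length, 709 CPM. It had 46.3, 77.3, 212 and 63.4 CPM in Δpp2A, again with replicate 3 on top, against 1087 and 487 CPM in the DD1 parent, 785, 1131 and 1009 CPM in Δpph5, 796 and 467 CPM in the DD3 parent, and 494, 546, 806 and 859 CPM in Δpph5-2. In both parents of TrD1044C replicate 1 was the higher library. The longest member, TrA0330C (3489 bases), was at 13.6, 9.41, 28.3 and 16.2 CPM in Δpp2A and between 59.4 and 168 CPM in the other 11.

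**Figure D3:**
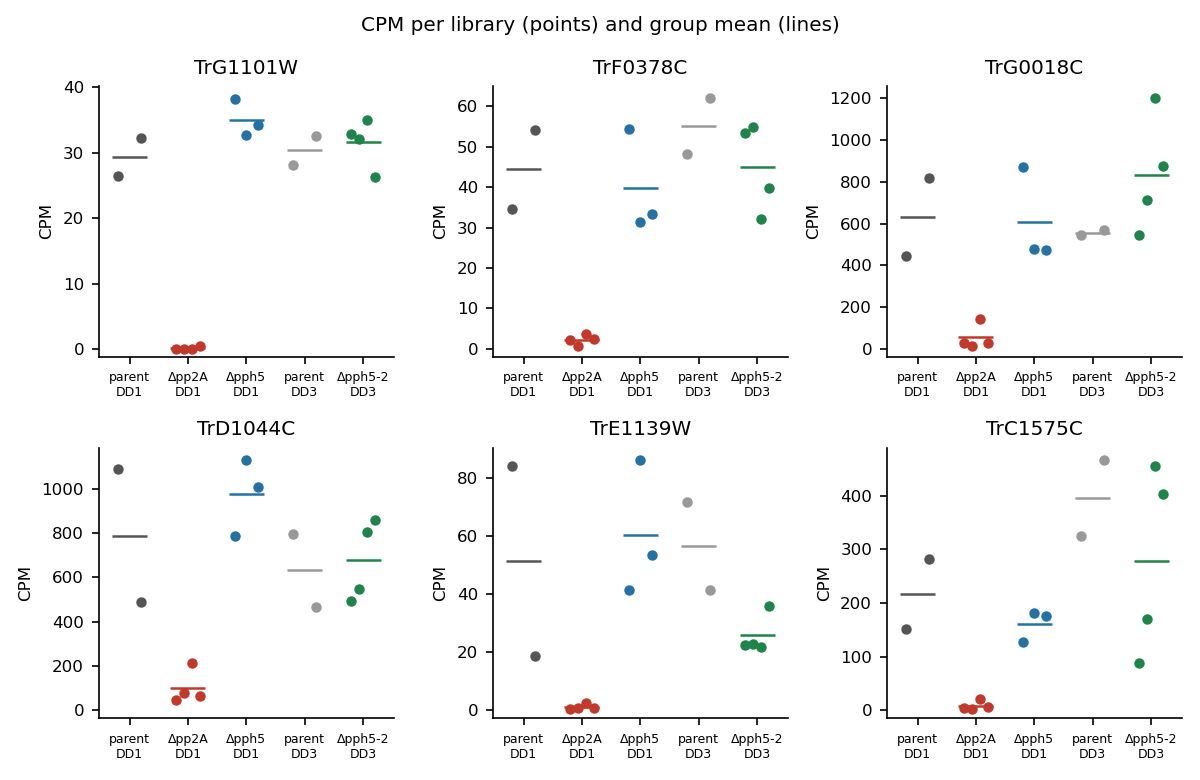
Points are single libraries and lines group means, in CPM on a linear axis from 0, for 6 members. In each panel the 4 Δpp2A points lie near 0 and under all others, and in TrG0018C and TrD1044C the replicate 3 point stands off, at 145 and 212 CPM.

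Of all single libraries, replicate 3 limited the size of the set most, though other settings of the rule changed it as well. It was the highest Δpp2A library in 28 of the 31 members, and in 26.1% of the genes that met the level criteria. In 14 members it was over 2-fold the next highest Δpp2A library, which held for 1.41% of those genes. The 3 members in which another library was highest were TrG1101W, TrF0379W and TrE0036C. TrE0036C (1101 bases) was at 13.5, 15.5, 14.04 and 13.3 CPM in Δpp2A, so that replicate 3 did not stand apart there. The members' median share of the mean of the 11 others was 7.18% in replicate 1, 7.51% in replicate 2, 16.6% in replicate 3 and 8.68% in replicate 4. The summed level was 1061 CPM in replicate 3 and 418, 390 and 452 CPM in replicates 1, 2 and 4. The 67 genes of the mirrored rule were at a median of 0.881-fold in replicate 3 relative to the mean of the other Δpp2A libraries. TrG1101W had 0 counts among the 10751762 counts of replicate 3.

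The most uneven member was TrA0865C (1725 bases), with 0.180, 0.636, 19.9 and 2.996 CPM in Δpp2A. Replicate 3 was 15.7-fold the mean of the other 3 Δpp2A libraries, while the lowest value elsewhere was 52.9 CPM. The ranges did not overlap, yet the remaining level differed by 2 orders of magnitude between Δpp2A libraries of the same label. These values were 2, 5, 214 and 25 counts in replicates 1 to 4. The lowest is under the floor of 3 counts, so the size of this difference is uncertain.

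When the rule was applied without replicate 3, 101 genes qualified, and the 31 members had to be among them. In replicate 3, which then had no part in the choice, 88 of these 101 genes (87.1%) were below each of the 11 other libraries, against 7.02% of the genes that met the level criteria. The 2-fold gap held in replicate 3 for 31 of the 101 (30.7%, against 0.558% of those genes), and these 31 are the members by definition. The 101 genes were chosen with the values of the same 11 libraries, while the genes that met the level criteria were not chosen by a gap. The shares set against each other here are thus not on equal terms, and replicate 3 is no independent check of the set. The 70 genes that failed there had a median of 39.3% of the mean of the 11 others in replicate 3, and of 12.3%, 8.34% and 12.3% in replicates 1, 2 and 4. In replicate 3, 53 of these 70 genes were under 50% of that mean. A smaller fall in replicate 3 than in the other replicates follows largely from the choice. These genes had to show the gap in replicates 1, 2 and 4 and to miss it in replicate 3. Without Δpp2A replicate 1, the library with the type WT, the rule took the same 31 genes.

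A choice by 1 Δpp2A library at a time gave the same order. With replicate 3 alone 36 genes qualified, and of these 32, 31 and 32 also kept the 2-fold gap in replicates 1, 2 and 4. Replicates 1, 2 and 4 alone took 117, 134 and 120 genes, and the same 32, 31 and 32 genes are the overlap seen from this side. Of the genes that met the level criteria, 1.81%, 2.08%, 0.558% and 1.86% had the gap in replicates 1 to 4. All these choices share the values of the 11 other libraries. Between replicates 1 and 2 the count was 105 of the 117 genes taken by replicate 1, with a median of 8.86% of the mean of the 11 others in replicate 2. All these libraries carry the same strain label, and whether they came from separate cultures is not known.

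**Figure D4:**
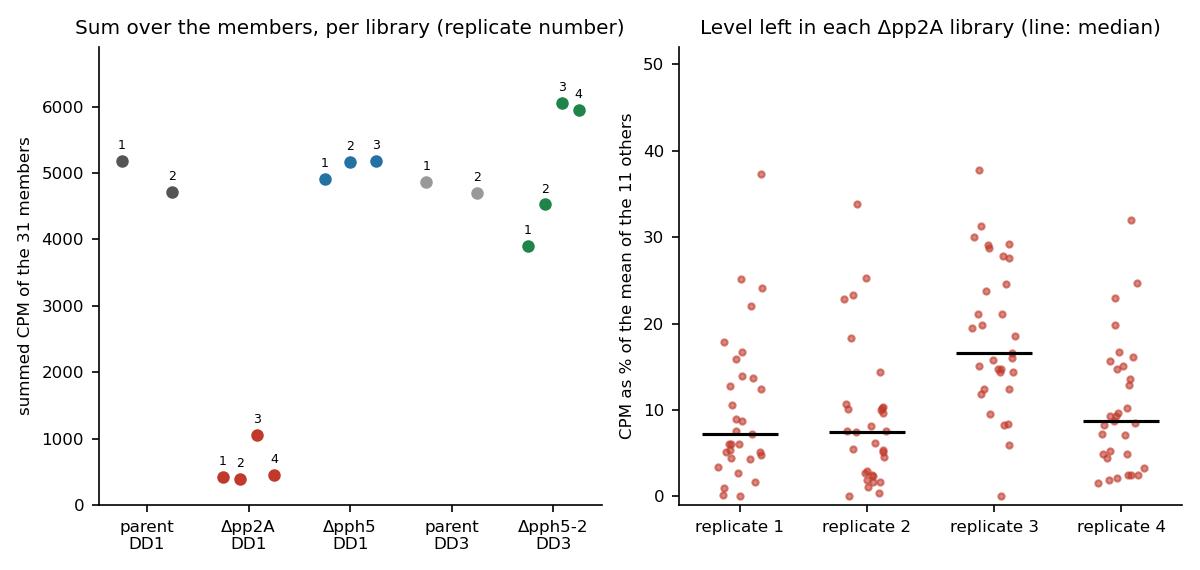
Left, summed CPM of the 31 members in each library, with replicate numbers above the points; right, the level of each member in each Δpp2A library as a percentage of the mean of the 11 other libraries, with the median as a line. The 4 Δpp2A sums lie between 390 and 1061 CPM and all others between 3905 and 6052 CPM, and the median of replicate 3 (16.6%) lies above those of the other replicates.

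Among the 11 other libraries the members spread more widely at the median than the genes that met the level criteria. The ratio of the highest to the lowest library had a median of 2.82 over the members and of 1.85 over those genes. The widest ratio was in TrE1081C (357 bases), 7.52-fold. TrE1081C was at 8.70 and 27.3 CPM in the DD1 parent, at 9.75, 6.14 and 5.30 CPM in Δpph5, at 22.1 and 39.8 CPM in the DD3 parent, at 10.1, 12.7, 23.1 and 18.4 CPM in Δpph5-2, and at 0.718, 0.890, 2.51 and 2.16 CPM in Δpp2A. Replicate 2 was the higher library in both parents, and the Δpph5 values lay near or below the lower parent library.

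Replicates of the same strain also pulled the members in different directions. Parent replicate 1 was above replicate 2 with both tags in 13 members (41.9%, against 25.7% of the genes meeting the level criteria), and replicate 2 was above replicate 1 with both tags in 12 (38.7%, against 56.9%). In Δpph5-2, replicates 3 and 4 were both above replicates 1 and 2 in 19 members, 61.3% against 15.2% of those genes. The summed level of the members in Δpph5-2 was accordingly 3905 and 4527 CPM in replicates 1 and 2 and 6052 and 5956 CPM in replicates 3 and 4, while it stayed between 4702 and 5184 CPM in the parents and Δpph5. TrC1575C (1605 bases) shows this spread, with 88.0, 170, 455 and 403 CPM in Δpph5-2 replicates 1 to 4. It was at 151 and 283 CPM in the DD1 parent, at 324 and 467 CPM in the DD3 parent, at 128, 181 and 176 CPM in Δpph5, and at 4.22, 2.93, 21.6 and 6.35 CPM in Δpp2A. Its 4 Δpph5-2 libraries thus lay on either side of both DD1 parent libraries, and all were at least 4.08-fold above the highest Δpp2A library.

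Differences among the other strains were no criterion of the rule, but each library of these strains had to pass its level and gap limits. A gene strongly lowered in any of these strains could thus fail to become a member. The counts of called members in these comparisons can therefore follow in part from the choice, and the genes they are set against were not chosen this way. In Δpph5 against the DD1 parent, edgeR called 0 of the 31 members (0.0112% of all genes were called), and DESeq2 called 0 (0.281% of all genes were called). At an unadjusted p under 0.05 edgeR had 1 member (3.23%), against 6.43% of all genes. Their median log2 fold change was -0.04, against 0.01 over all genes tested, with 14 members above 0 and 17 below. The member with the smallest p was TrE1081C, at -1.29 on the log2 scale (SE 0.54, edgeR adjusted p = 0.739). This value rested on the parent libraries, at -0.40 without DD1 parent replicate 2 and -1.83 without replicate 1. Adjusted p-values here are Benjamini-Hochberg values over all 8912 genes.

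In Δpph5-2 against the DD3 parent, edgeR again called 0 members (0.0112% of all genes were called). At an unadjusted p under 0.05 it had 2 members (6.45%), against 8.64% of all genes. This order depended on the fit. With only the libraries of the 2 groups it had 5 members (16.1%), against 11.5% of all genes. With a replicate block it had 5 members (16.1%), against 10.5%. The members' median log2 fold change was -0.11, against 0.01 over all genes tested, with 12 above 0 and 19 below. TrC0270W (1305 bases) had the smallest p. It was at 259, 356, 341 and 294 CPM in Δpph5-2 and at 190 and 165 CPM in the DD3 parent, without overlap, and at 170 and 255 CPM in the DD1 parent, both under the lowest Δpph5-2 library. Its log2 difference was 0.74 (SE 0.18, edgeR adjusted p = 0.371), and DESeq2 called it as its single member (adjusted p = 0.0337), where DESeq2 called 0.898% of all genes. In Δpp2A TrC0270W was at 60.4, 58.4, 75.3 and 57.5 CPM. TrF0379W had the second smallest p, at -0.84 on the log2 scale (SE 0.38, edgeR adjusted p = 0.556). It was at -0.43 without DD3 parent replicate 1 and at -1.17 without replicate 2. TrC0270W and TrF0379W were picked after their values were seen.

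Between the parents of DD3 and DD1, edgeR and DESeq2 each called 0 members (each called 0% of all genes), and edgeR had 0 members at an unadjusted p under 0.05, against 1.82% of all genes. The median log2 fold change of the members was -0.12, against -0.03 over all genes tested. A test of the Δpph5-2 response against the Δpph5 response called 0 members by edgeR (0.0224% of all genes were called), and DESeq2 was not run on it. In that test 1 member (3.23%) had an unadjusted p under 0.05, against 3.34% of all genes. The median standard error of a member's log2 fold change was 0.49, 0.47 and 0.54 in the first 3 of these comparisons, about as large as many of the differences. Over all genes it was 0.25, 0.24 and 0.27. In fits of only the 2 groups compared, the members' median was 0.35, 0.29 and 0.29. Smaller shifts in the members could thus go undetected, and the size of shift that could be seen depends on the fit.

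**Figure D5:**
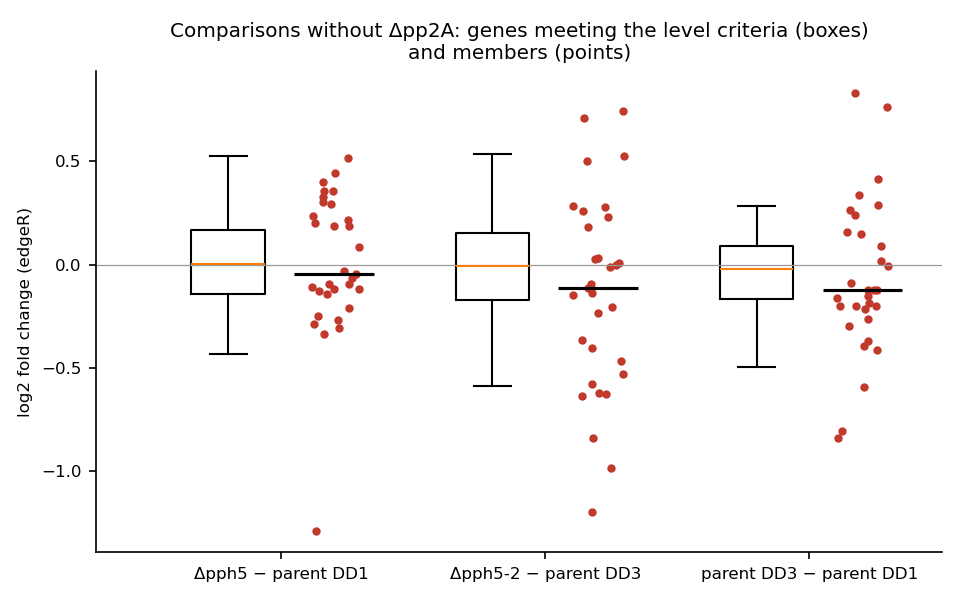
Boxes give the quartiles of the edgeR log2 fold changes of the genes that met the level criteria, with the median in orange and whiskers from the 5th to the 95th percentile; points are the 31 members and black lines their medians. The members scatter on both sides of 0 in all 3 comparisons, with medians of -0.04, -0.11 and -0.12.

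Some members carried neighbouring identifiers, which consist of a letter for a series, a running number and W or C. The sources used here do not state whether consecutive numbers mark neighbouring genes on a chromosome. Consecutive numbers joined 6 members into 3 pairs, TrC1575C with TrC1576W, TrE1138C with TrE1139W, and TrF0378C with TrF0379W, and TrC1578W followed 2 numbers after the first pair. Each pair joins an identifier ending in C with the next one ending in W. Neither the strand setting of the counting nor any overlap of the partners is stated, and whether they shared reads was not tested.

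The partners in the E series differed in how they varied in the other strains. TrE1138C (1377 bases) was at 114 and 96.0 CPM in the DD1 parent and TrE1139W (1371 bases) at 84.1 and 18.8 CPM. In the DD3 parent they were at 144 and 135 CPM and at 71.5 and 41.5 CPM, in Δpph5 at 133, 114 and 108 CPM and at 41.4, 86.1 and 53.4 CPM. In Δpph5-2 TrE1138C was at 65.5, 73.8, 115 and 120 CPM and TrE1139W at 22.5, 23.0, 21.8 and 36.0 CPM. In Δpp2A TrE1138C kept 3.77, 2.67, 17.5 and 2.76 CPM and TrE1139W 0.449, 0.763, 2.70 and 0.959 CPM. Replicate 3 was thus the highest Δpp2A library for both partners, while the parent replicates differed strongly only in TrE1139W. The identifiers on either side of this pair, TrE1137C and TrE1140C, were higher in Δpp2A, with means of 136 and 150 CPM against 33.1 and 74.6 CPM over the 11 others.

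In the C series, TrC1576W (2496 bases) kept 9.61, 6.87, 21.5 and 6.59 CPM in Δpp2A against 79.2 to 233 CPM in the other 11, and TrC1578W (1101 bases) kept 8.80, 7.12, 20.6 and 10.4 CPM against 44.9 to 95.4 CPM. TrC1577C, whose number lies between them, had a mean of 22.0 CPM in Δpp2A and of 33.8 CPM in the 11 others, which ranged from 16.3 to 49.4 CPM. Its log2 ratio was -0.61, and its Δpp2A libraries overlapped the others. TrC1575C and TrC1576W were alike in being higher in replicate 2 of both parents and in replicates 3 and 4 of Δpph5-2. In the F series, TrF0379W (360 bases) was at 2.60, 1.27, 1.49 and 1.32 CPM in Δpp2A against 9.34 to 29.0 CPM elsewhere. The next identifier, TrF0380W (72 bases), missed the rule with 3.35 CPM in its highest Δpp2A library and 5.08 CPM in the lowest of the others.

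The level of identifiers next to a member was mixed in Δpp2A. Of 43 neighbours by number that were no members and had a mean of at least 1 CPM in Δpp2A or the others, 8 (18.6%) were at least 2-fold lower on the log2 scale with 0.5 CPM added, and 8 were at least 2-fold higher. Over all 8633 genes of that level 681 (7.89%) were 2-fold lower and 700 higher. The median log2 ratio of these neighbours was 0.21, and that of all genes 0.22. These 43 were 1 number away from a member. At 2 numbers away, 6 of 48 (12.5%) were 2-fold lower and 8 higher. At 3 numbers away, 10 of 45 (22.2%) were 2-fold lower and 9 higher, so the share did not fall steadily with distance. These are counts over genes and carry no test.

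In length and in W or C ending the members were close to the genes that met the level criteria, while their shares of the identifier series differed more. The median coding length was 1305 bases, from 324 to 3489, against 1389 bases. Identifiers ending in W were 15 of 31 (48.4%), against 49.4%. The series C and E held 7 members each, 22.6% of the members each and 15.1% and 12.2% of the genes that met the level criteria, and the series A, with 4 members, held 12.9% against 21.0%.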

How the data were processed

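The authors deposited raw read counts, with each library in a column and a length beside each gene. Per the submitters' processing notes HISAT2 2.2.1 was used, in a role they do not state. The deposited counts carry the name featurecounts. The strand setting of the counting, the genome build and the gene annotation were not given in the sources used here. Columns were matched to samples through the description label. Of the lengths, 94.7% are multiples of 3 and are called coding lengths here. Levels are CPM of the library total. Of the 10879 identifiers 0 matched the reference gene table of 9116 genes, so no gene lists could be used and no sequences are shown.

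Tests used edgeR 4.0.16 in R 4.3.3: filterByExpr over the 5 groups, TMM scaling and a robust quasi-likelihood fit with 1 mean per group over all 15 libraries, with Benjamini-Hochberg adjustment over 8912 genes and a threshold of 0.05. The procedure was tested on simulated data. Standard errors were derived from the log2 fold change and the F statistic. DESeq2 1.42.0, library size scaling, no filter, a replicate block, 2-group fits and leaving out each library were alternatives. Intervals and floors, 3 counts per library, cover counting error only.

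The members, the comparisons and the naming rule were chosen with earlier results of these data known. Named by rule were the candidate for the deleted gene, the next widest gap, the highest parent mean, the extremes of spread over the 11 other libraries, the longest member and the ends of the longest run of consecutive identifiers, which was a tie of 3 pairs. TrA1076W, TrG0018C, TrA0865C, TrE0036C and the other members of pairs, with their neighbours, were added after their values were seen.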

Additional observations from a re-analysis of the deposited data

Results flagged for a closer look

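In Δpp2A, replicate 3 lay far from the other 3 libraries in the summed level of the members (1061 CPM), in TrC0270W (75.3 CPM), in TrE1138C (17.5 CPM), in TrA0865C (19.9 CPM) and in TrG0018C (145 CPM), each time as the highest. Replicate 4 was the distant library for TrG1101W (0.479 CPM), where the other 3 had 0 counts and any count is distant, and replicate 1 for TrF0379W (2.60 CPM). In Δpph5-2, replicate 4 stood above the others in TrF0379W (13.2 CPM) and in TrE1139W (36.0 CPM). In all, 34 sets of 4 values were examined, 16 named members and the sum in both strains, and 9 held such a library, where chance gives about 1.7 for normally distributed values. Over all 31 members Δpp2A held 9 distant libraries, 7 of them replicate 3, and Δpph5-2 held 2, where chance gives about 1.55 in each strain. The smaller groups were not examined, and the sum and its members are not independent of each other. The rule itself used the highest Δpp2A value of each member, and some named members were added after their values were seen. The figures for chance are thus no fair measure here, and nothing is concluded from them.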

How the results depend on the processing

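The number of genes that met the rule was 31 as given, 56 with TMM-scaled CPM, 80 with a gap of 1.5-fold, 15 with a gap of 3-fold and 106 with the 2 DD1 parents as the only other libraries. Leaving out each library gave 31 to 101 genes, the highest without Δpp2A replicate 3, and the other 14 gave at most 36. All 31 members were included in each of these sets except the 15 genes at 3-fold and the 26 at a level of 10 CPM, which were all members. Apart from TMM-scaled CPM, this was fixed in advance. A smaller gap or fewer libraries can only loosen the gap and level limits, and stricter limits can only remove members. The inclusion is thus no sign of stability, and only the number of added or lost genes is informative. Leaving out each library gave 0 called members in each of the 3 comparisons without Δpp2A, and 30 to 31 in Δpp2A against the DD1 parent. DESeq2 called 1 member in Δpph5-2 against the DD3 parent, TrC0270W, with a log2 fold change of 0.73. Without DD1 parent replicate 1, the members' median between the parents was 0.07 instead of -0.12, and that of Δpph5 was 0.20 instead of -0.04. The lone parent library is then assumed to vary like the other groups. Over all genes, leaving out each library gave 890 to 2337 calls for Δpp2A against 1665, with 890 without DD1 parent replicate 1, and 1 to 6 for Δpph5 and for Δpph5-2 against 1 each. DESeq2 called 25 and 80 genes for the latter 2. Library size scaling gave 1401 higher and 510 lower genes in Δpp2A, against 708 and 957. With a replicate block, 0, 0, 0 and 31 members were called in Δpph5, Δpph5-2, the parents and Δpp2A, and the medians were -0.16, -0.30, -0.12 and -3.92. The labels do not say that libraries of the same number are paired. Same-numbered deviations correlated across genes at -0.73 and -0.55 between Δpph5 and its parent, and at -0.22 and 0.24 between Δpph5-2 and its parent. Between the parents both values were 0.74, the same by construction with 2 libraries in each group. The main fits, without the block, leave this shared pattern of the parents in the spread. Where a value moved, the cause was not tested.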

Other observations

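The level criteria left out 18 genes with the same 2-fold gap. In 10 of them the parent mean was 1000 CPM or more, from 1196 to 13472 CPM, and Δpp2A kept between 3.97% and 19.3% of the mean of the 11 others, with a median of 11.2%. These 10 genes made up 3.27% and 3.35% of the counts in the DD1 parent libraries and 0.288%, 0.159%, 0.757% and 0.280% in Δpp2A replicates 1 to 4. Replicate 3 was the highest Δpp2A library in 8 of the 10. The other 8 genes were under 5 CPM in at least 1 of the 11 libraries, with a parent mean of at most 8.97 CPM, and Δpp2A kept a median of 3.65%.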
